A study of Mus musculus with 16 samples.

Results

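The genes described here encode the laminins, the cross-shaped proteins that build basement membranes, and the integrins, the cell surface receptors that hold cells to laminin and to other matrix proteins. They were chosen by name, as mouse gene symbols for laminin alpha, beta or gamma chains or integrin alpha or beta chains. No measured value entered this rule, but earlier results of these data were known when it was set. Of the 36 symbols of the RefSeq table described here, 34 had a probe on the array, 10 laminin chains and 24 integrin chains with 45 probes in all, out of 37167 genes on the array. Itga10 and Itgae matched no probe. A gene was tested when the scanner software had flagged a probe of it as well above background on every array of 1 age or more, which held for 8 laminin and 19 integrin chains (27 of the 34) among 21777 genes.

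A laminin is a trimer of 1 alpha, 1 beta and 1 gamma chain that is assembled inside the cell, secreted and joined into a sheet, to which nidogens, perlecan and type IV collagen then bind. Each muscle fibre lies in such a sheet and is held to it by dystroglycan, which is tied to dystrophin, and by the integrin of Itga7 and Itgb1. Mutations of Lama2 and of Itga7 cause muscular dystrophies. Blood vessels, nerves and tendon ends in a muscle have basement membranes and integrins of their own.

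Gastrocnemius, the large muscle of the calf, came from C57Bl/6J mice, all female and untreated, at 3, 15, 24 or 29 months of age, and total RNA of the whole muscle was labelled with Cy3 and read on a 1-colour Agilent array, 4 arrays per age and 16 in all. Levels are given as the log2 of the signal relative to the 75th percentile of the same array, so that a difference of 1 is a 2-fold difference in signal, and values listed for an age are those of replicates 1 to 4. Each probe has its own brightness, so levels are compared between ages and not between genes. Whether each sample was a separate animal is not stated in the labels, so the p-values measure only how these samples differ from each other, which may be a technical spread. In whole muscle RNA, fewer cells of a type and less RNA per cell cannot be told apart.

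The 8 arrays of 3 and 15 months shared 1 slide and the other 8 a second slide, so the comparisons of 15 against 3 and of 29 against 24 months were within a slide, and the other 3 comparisons were across slides, where slide and age cannot be told apart. On each slide the arrays of an age filled 1 row, so within a slide row and age cannot be told apart either. Between 48% and 60.9% of spots were well above background per array and 0 were saturated, and arrays of one age correlated across genes at 0.970 to 0.995. Of the 8 muscle fibre markers, 8 were well above background on 16 of 16 arrays. When limma weighted arrays by their fit, the lowest weights went to replicate 1 (0.265) and replicate 3 (0.423) of 29 months and to replicate 2 (0.368) and replicate 4 (0.513) of 24 months, against 0.995 to 2.07 for the other 12.

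The question put by the design was which chains change with age. Between 3 and 29 months, 5 of the 27 tested chains changed in the limma fit with Benjamini-Hochberg adjustment over all genes, at an adjusted p under 0.05. Lamc1, the gamma chain of most laminins, fell 1.92-fold, and with it fell the integrin chains Itga1 (1.95-fold), Itga6 (1.69-fold) and Itgb6 (1.84-fold). Itga8 was measured 2.51-fold lower, but its probe passed the filter only through 3 months, the age where it was highest. With a filter that asked for signal well above background on all arrays, Itga8 was not tested. That fit called 4 chains and 15.8% of all genes. The 5 are 18.5% of the chains, against 14.6% of all tested genes called, of which 7.66% were lower and 6.99% higher, and these shares were set side by side with no test. The median change of the 27 was -0.30, against -0.04 over all genes. The arrays of the 2 ages did not overlap for 5 chains (18.5%, against 19.7% of all genes), Lamc1, Itga1, Itga8, Lama4 and Itga3, and in each the 29 month arrays were the lower.

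That count rests on a few arrays. Without replicate 3 of 3 months it was 1 (11% of all genes called), and without replicate 3 of 29 months it was 1 (12.2%). Without replicate 4 of 3 months it was 2 (10.9%), without replicate 1 of 29 months it was 3 (13.7%), and Lamc1 was called in each of these fits. With the array median in place of the 75th percentile the count was 2 (Lamc1 and Itga8, both lower), and 7.06% of all genes were called. With only the 8 arrays of 3 and 29 months in the fit it was 2 (Lamc1 and Itga1), and 9.11% of all genes were called.

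Among the laminin alpha chains, none of the 4 tested changed in any comparison of ages. Lama2 is the alpha chain of the main laminin around adult muscle fibres. It read 2.40, 2.49, 2.76 and 2.62 at 3 months, 1.99, 2.53, 2.66 and 2.62 at 15 months, 2.13, 1.13, 2.53 and 2.30 at 24 months and 1.83, 2.14, 1.99 and 2.70 at 29 months. The lowest array was replicate 2 of 24 months, and the 29 month arrays overlapped those of 3 months. The change from 3 to 29 months was -0.40 (SE 0.26, adjusted p = 0.340, limma), and a second probe of Lama2 gave -0.54 (SE 0.25, adjusted p = 0.173, limma).

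Lama4, an alpha chain known from the basement membranes of blood vessels, had the widest spread of the alpha chains. It read 0.87, 1.01, 0.93 and 1.09 at 3 months, 0.73, 1.04, 1.08 and 1.06 at 15 months, -0.0055, -1.24, 0.86 and 0.77 at 24 months and -0.36, 0.32, -0.47 and 0.83 at 29 months. No array of 24 or 29 months reached the lowest array of 3 months, but replicates 3 of 24 months and 4 of 29 months were close to it, and replicate 2 of 24 months was the lowest of the 16. The change to 29 months was -0.89 with an SE of 0.38 and did not pass (adjusted p = 0.130, limma).

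Lama5, an alpha chain found in vessels and at the neuromuscular junction, read 2.17, 2.20, 2.30 and 2.28 at 3 months and 2.45, 2.49, 2.41 and 2.5 at 15 months. All 4 arrays of 15 months were above those of 3 months, yet the change was 0.22 and was not called (adjusted p = 0.404, limma). At 24 months it read 2.36, 2.31, 2.18 and 2.41 and at 29 months 2.14, 2.52, 2.15 and 2.42, both overlapping 3 months. Lama3, the alpha chain of epithelial laminin, read from -0.15 to 0.24 at 3 months and from -0.58 to -0.035 at 29 months, a difference of -0.30 (adjusted p = 0.213, limma). Lama1, best known from embryonic basement membranes, was well above background on 1 of 16 arrays, replicate 4 of 24 months.

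Of the beta chains, Lamb1 is found in many basement membranes and Lamb2 is the beta chain enriched at the neuromuscular junction. Lamb1 read 2.65, 2.53, 2.90 and 2.77 at 3 months, 2.14, 2.13, 2.28 and 1.96 at 15 months, 1.77, 0.57, 2.40 and 2.38 at 24 months and 1.40, 2.37, 1.08 and 2.71 at 29 months. The arrays of 15 and of 24 months all lay below those of 3 months, while at 29 months replicates 1 and 3 were low and replicate 4 was within the range of 3 months. Its changes from 3 months were -0.58, -0.93 and -0.82 at 15, 24 and 29 months, each with an SE of 0.38, and none passed (adjusted p = 0.692, 0.177 and 0.168, limma). In a fit of the 8 arrays of 3 and 15 months alone, Lamb1 was the 1 chain called lower at 15 months, and 3.31% of all genes were called.

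Lamb2 read 3.18, 3.35, 3.31 and 3.43 at 3 months, 3.27, 3.48, 3.44 and 3.54 at 15 months, 3.39, 2.83, 3.23 and 3.20 at 24 months and 2.66, 3.46, 3.06 and 3.43 at 29 months. The ages overlapped throughout, and the lowest array was replicate 1 of 29 months. The change to 29 months was -0.16 (SE 0.16, adjusted p = 0.557, limma). Lamb3, the beta chain of epithelial laminin, differed by 0.079 (SE 0.32, adjusted p = 0.905, limma) between 3 and 29 months.

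Lamc1, which joins Lama2 or Lama4 and a beta chain in the laminins of fibres and vessels, was the laminin chain that changed. It read 3.60, 3.62, 4.04 and 3.72 at 3 months (mean 3.74 ± 0.21, SD, n = 4), 3.11, 3.30, 3.45 and 3.20 at 15 months, 3.07, 2.30, 3.24 and 2.93 at 24 months and 2.58, 2.72, 2.61 and 3.30 at 29 months (mean 2.80 ± 0.33, SD, n = 4). Every array of the 3 later ages was below every array of 3 months. The change was -0.48 at 15 months (adjusted p = 0.367, limma), -0.86 at 24 months (SE 0.20, adjusted p = 0.0253) and -0.94 at 29 months (SE 0.20, adjusted p = 0.00568). Lamc1 was also the 1 chain with any difference among the 4 ages in limma's F test (adjusted p = 0.0164), which called 11.9% of all genes. At 24 against 3 months Lamc1 was the 1 chain called, 3.70% of the chains against 4.66% of all genes (2.49% lower and 2.17% higher). The arrays of these ages did not overlap for 5 chains (18.5%, against 14.8% of all genes), Lamc1, Lama4, Lamb1, Itga1 and Itga6, in each with 24 months lower. The call of Lamc1 at 24 months was lost without replicate 3 or 4 of 3 months or replicate 2 of 24 months (adjusted p up to 0.0803) and without the 4 arrays of low weight together, and the call at 29 months held when any 1 array was left out (adjusted p up to 0.0205).

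Lamc3, a gamma chain of more restricted occurrence, was well above background on 1, 3, 3 and 2 arrays at 3, 15, 24 and 29 months and was not tested.

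**Figure D1:**
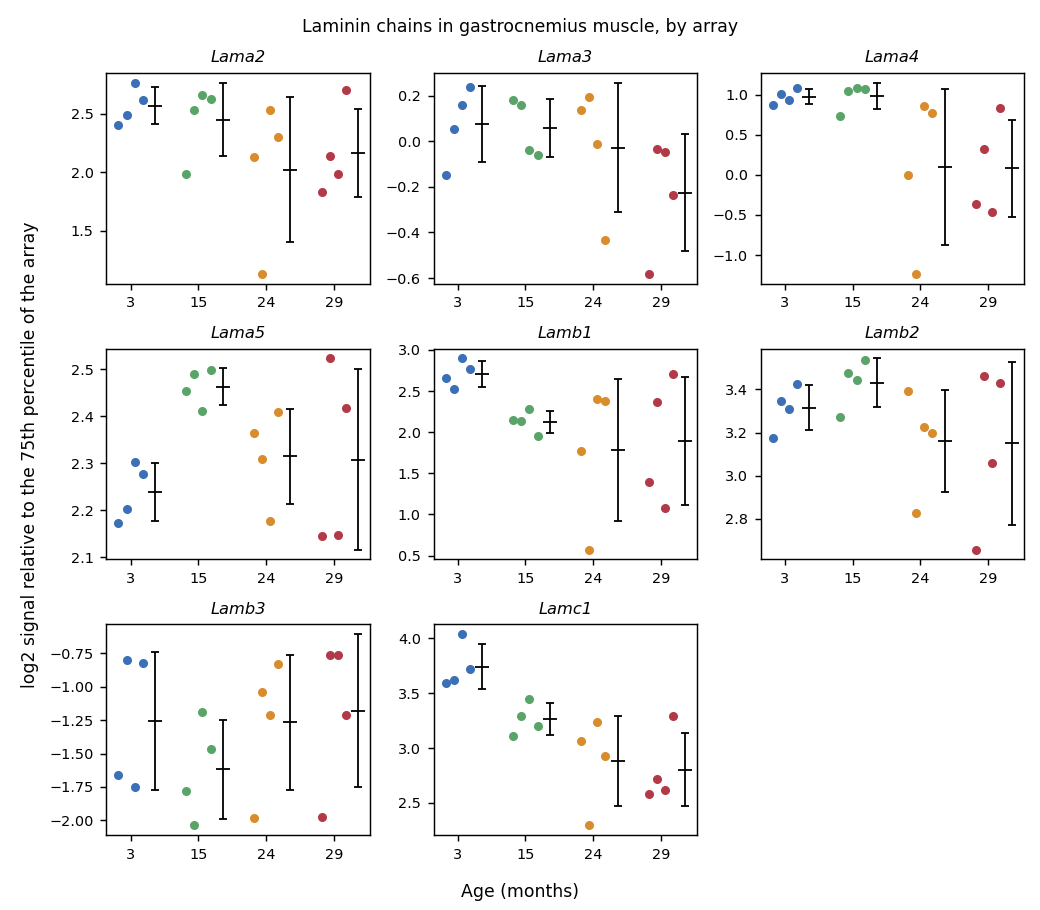
Levels of the 8 tested laminin chains by array, as log2 signal relative to the 75th percentile of the array (vertical axes, each gene on its own scale) against age in months (horizontal axes), with 1 point per array in the order of replicates 1 to 4 and a black bar for the mean ± SD of 4 arrays. The arrays of 3 months lie above those of all later ages for Lamc1, and Lama2, Lama4 and Lamb1 are lowest on replicate 2 of 24 months.

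The integrins that bind laminin are formed by Itga3, Itga6 and Itga7, mostly with Itgb1, and Itga6 also pairs with Itgb4. Itga7, the laminin receptor of the muscle fibre that is dense at the junctions with tendon and nerve, read 4.75, 4.79, 5.0 and 5.24 at 3 months, 4.74, 5.08, 5.22 and 4.89 at 15 months, 4.82, 5.12, 4.96 and 5.01 at 24 months and 4.55, 4.59, 4.97 and 4.85 at 29 months. The ages overlapped, and the change to 29 months was -0.21 (SE 0.14, adjusted p = 0.365, limma). Itgb1, the beta chain shared by most of these receptors, read 1.26, 1.12, 1.40 and 1.26 at 3 months, 1.22, 1.57, 1.46 and 1.41 at 15 months, 1.40, 0.78, 1.1 and 1.27 at 24 months and 1.08, 1.31, 1.20 and 1.42 at 29 months. Its change was -0.0087 (SE 0.13, adjusted p = 0.975, limma), and a second probe gave 0.35 (SE 0.16, adjusted p = 0.157). For the pair of chains that form the fibre's own laminin integrin, then, no change passed the test.

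Itga6 is abundant on endothelium, Schwann cells and epithelia. It read 3.14, 2.99, 3.76 and 3.76 at 3 months, 2.72, 3.06, 3.00 and 2.85 at 15 months, 2.86, 2.15, 2.65 and 2.88 at 24 months and 2.68, 2.82, 2.07 and 3.05 at 29 months. Replicates 3 and 4 of 3 months were the highest of all arrays, and replicate 4 of 29 months was above replicate 2 of 3 months. The change was -0.76 (SE 0.23, adjusted p = 0.0386, limma) and was lost without replicate 3 or 4 of 3 months or replicate 1, 2 or 3 of 29 months (adjusted p up to 0.112).

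Itga3 was lower on all 4 arrays of 29 months than on any of 3 months, by -0.39, and was not called (adjusted p = 0.127, limma). Itgb4, the chain of hemidesmosomes that Schwann cells also carry, read -0.32, -0.31, 0.40 and 1.09 at 3 months, 0.42, 0.95, 1.31 and 0.25 at 15 months, -0.53, -0.59, -0.34 and 0.31 at 24 months and -0.71, 0.020, -1.11 and 0.50 at 29 months. It was high on replicate 4 of 3 months and replicate 3 of 15 months and low on replicate 3 of 29 months. The mean of 6 Schwann cell markers, relative to all arrays, was 1.15, 1.41 and -1.45 on these 3 arrays. The 2 did not go together on every array. On replicate 2 of 24 months, where Itgb4 read -0.59, the mean was 0.57. The part of Schwann cells in the level of Itgb4 was not tested. No comparison of ages called Itgb4.

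The collagen-binding integrins are formed by Itga1, Itga2, Itga10 or Itga11 with Itgb1. Itga1, found on vessel walls and fibroblasts, read -0.36, -0.24, 0.15 and 0.15 at 3 months, -0.85, -0.56, -0.74 and -0.60 at 15 months, -0.52, -1.88, -0.78 and -0.64 at 24 months and -0.90, -0.80, -1.61 and -0.85 at 29 months. Each later age lay wholly below 3 months, and replicate 2 of 24 months and replicate 3 of 29 months were the lowest. The change to 29 months was -0.96 (SE 0.26, adjusted p = 0.0224, limma), and it was lost without replicate 3 or 4 of 3 months or replicate 3 of 29 months (adjusted p up to 0.0657). The 2 probes of Itga1 gave different values, and the call was lost when they were averaged. The second, also above background on every array, gave -0.18 (SE 0.51, adjusted p = 0.864, limma).

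Itga11, the receptor of fibroblasts for fibrillar collagen, was between 1.19 to 1.73 at 3 months and between -0.27 to 1.48 at 29 months, with -1.19 on replicate 2 of 24 months. Its change was -0.81 with an SE of 0.48, and did not pass (adjusted p = 0.294, limma). Itga2, known from platelets and epithelia, was not well above background on any array.

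The integrins of Itga5, Itga8 and Itgav bind fibronectin, vitronectin, nephronectin and latent TGF-beta through a short motif of these proteins. Itga8, a chain of smooth muscle and mesenchymal cells, read -2.5, -2.33, -1.79 and -2.25 at 3 months, -3.48, -2.63, -2.69 and -2.96 at 15 months, -3.71, -3.70, -3.42 and -2.47 at 24 months and -3.61, -2.84, -4.63 and -3.09 at 29 months. Both 15 and 29 months lay wholly below 3 months. The change to 29 months was -1.33 (SE 0.36, adjusted p = 0.0225, limma), and it was lost without replicate 3 of 3 months or replicate 3 of 29 months (adjusted p up to 0.0664). The probe was dim, being well above background on 4, 3, 2 and 2 arrays at the 4 ages, so some of these levels were not well above background. It was tested only because all arrays of 3 months, its highest age, passed the filter.

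Itgb6 pairs with Itgav in a receptor that activates latent TGF-beta and is best known from epithelia. It read 2.24, 1.78, 1.87 and 1.77 at 3 months, 1.61, 1.53, 1.57 and 1.59 at 15 months, 2.16, 1.17, 1.55 and 1.27 at 24 months and 0.60, 1.81, 0.35 and 1.37 at 29 months. At 29 months replicates 1 and 3 were the lowest of the 16 arrays and replicate 2 was within the range of 3 months. The change was -0.88 (SE 0.28, adjusted p = 0.0440, limma), and leaving out 1 array lost the call in 11 of 16 fits (adjusted p up to 0.122). A second, dimmer probe was well above background on 4, 4, 3 and 0 arrays at the 4 ages and was at least 1.94-fold lower at 29 than at 3 months, counted against the lowest signals above background (measured means -2.53 and -3.63, adjusted p = 0.0107, limma).

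The other chains of this class were not called in any comparison of ages. Itgb5, a vitronectin receptor chain, was 4.11 to 4.55 at 3 months and higher on every array of 15 months (4.62 to 4.76), a change of 0.30 (adjusted p = 0.429, limma). Itgav changed by 0.15 to 29 months (SE 0.13) and its second probe by 0.35 (SE 0.23). Itga5, a chain of the classical fibronectin receptor, was -1.46, -2.30, 0.24 and -1.91 at 3 months, so that replicate 3 alone stood well above the rest. Itga2b, known from platelets, was well above background on 1 array and Itgb8 on none.

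The sequences that follow belong to the chains that were lower at 29 months. They are the 120 bases before the RefSeq start of the 3 called integrin chains that the RefSeq promoter table holds, written 5′ to 3′ on the gene's strand (build GRCm38.p6, all 3 on the minus strand). They lie at chr13:115101965-115102084 for Itga1, chr2:12301945-12302064 for Itga8 and chr2:60722604-60722723 for the upstream start of Itgb6. The window of a second, downstream start of Itgb6 (chr2:60673694-60673813, 45.8% G and C) is not printed.
Itga1: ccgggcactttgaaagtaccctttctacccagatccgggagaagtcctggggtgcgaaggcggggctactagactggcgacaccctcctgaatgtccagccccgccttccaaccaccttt
Itga8: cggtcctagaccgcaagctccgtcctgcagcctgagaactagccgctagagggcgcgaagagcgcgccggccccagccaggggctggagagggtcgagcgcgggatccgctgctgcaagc
Itgb6: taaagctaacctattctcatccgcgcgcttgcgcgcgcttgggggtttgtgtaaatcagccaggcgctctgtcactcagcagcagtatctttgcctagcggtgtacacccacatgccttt
They held 60% (Itga1), 70.8% (Itga8) and 54.2% (Itgb6) G and C, against a median of 54.2% over all windows of the same length in the table. None of 4 motifs searched on both strands was found in them, so no base is in capitals. These were the GC box GGGCGG, present in 26.5% of 32851 windows, the CCAAT box CCAAT in 21.3%, the TATA box TATAAA in 6.34% and the AP-1 site TGANTCA in 3.41%. This says only that these letters are not in these windows.

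Itga4, a receptor of leukocytes and muscle precursors, and Itga9, a tenascin receptor, changed by -0.13 (SE 0.26) and 0.31 (SE 0.17) to 29 months and were not called. The leukocyte integrins Itgb2 and Itgb7 were high on single arrays. Itgb2 was 0.74, -1.29, -1.62 and -1.17 at 29 months, and Itgb7 was 1.89, -1.30, -2.15 and -0.88, against -1.81 to -1.43 and -1.44 to -1.38 at 3 months. Itgb3, shared by platelets and vessel cells, was 0.31, -0.90, -0.93 and -0.80 at 29 months. Replicate 1 of 29 months was the high array in all 3. Itgb7 was also high on replicate 4 of 24 months, at 0.23, where replicates 1 to 3 lay between -1.72 and -1.30.

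The changes to 29 months were 0.81 for Itgb2 (adjusted p = 0.146), 0.81 for Itgb7 (adjusted p = 0.435) and 0.41 for Itgb3 (adjusted p = 0.336) in limma. Without that array they were 0.28, -0.03 and 0.11. Without all 4 arrays of low weight, that one included, Itgb2 was 0.41 higher and was called (SE 0.12, adjusted p = 0.0399, limma). That fit kept only replicates 2 and 4 of 29 months and called 17.2% of all genes. The arrays left out were picked by weights from these same data. The mean of 9 tested leukocyte markers, relative to all arrays, was 1.57 on replicate 1 of 29 months, -0.30 to 0.36 on the other 3 of that age and 0.62 on replicate 4 of 24 months, and its part in these levels was not tested. Itgal differed by -0.34 and Itgam by 0.39 between 29 and 3 months, neither called, and the other 2 probes of Itgam gave 0.11 and -0.18. Itgad was not well above background on any array, and Itgax, a chain of dendritic cells and macrophages, was so on 3, 0, 3 and 3 arrays at the 4 ages and was not tested.

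**Figure D2:**
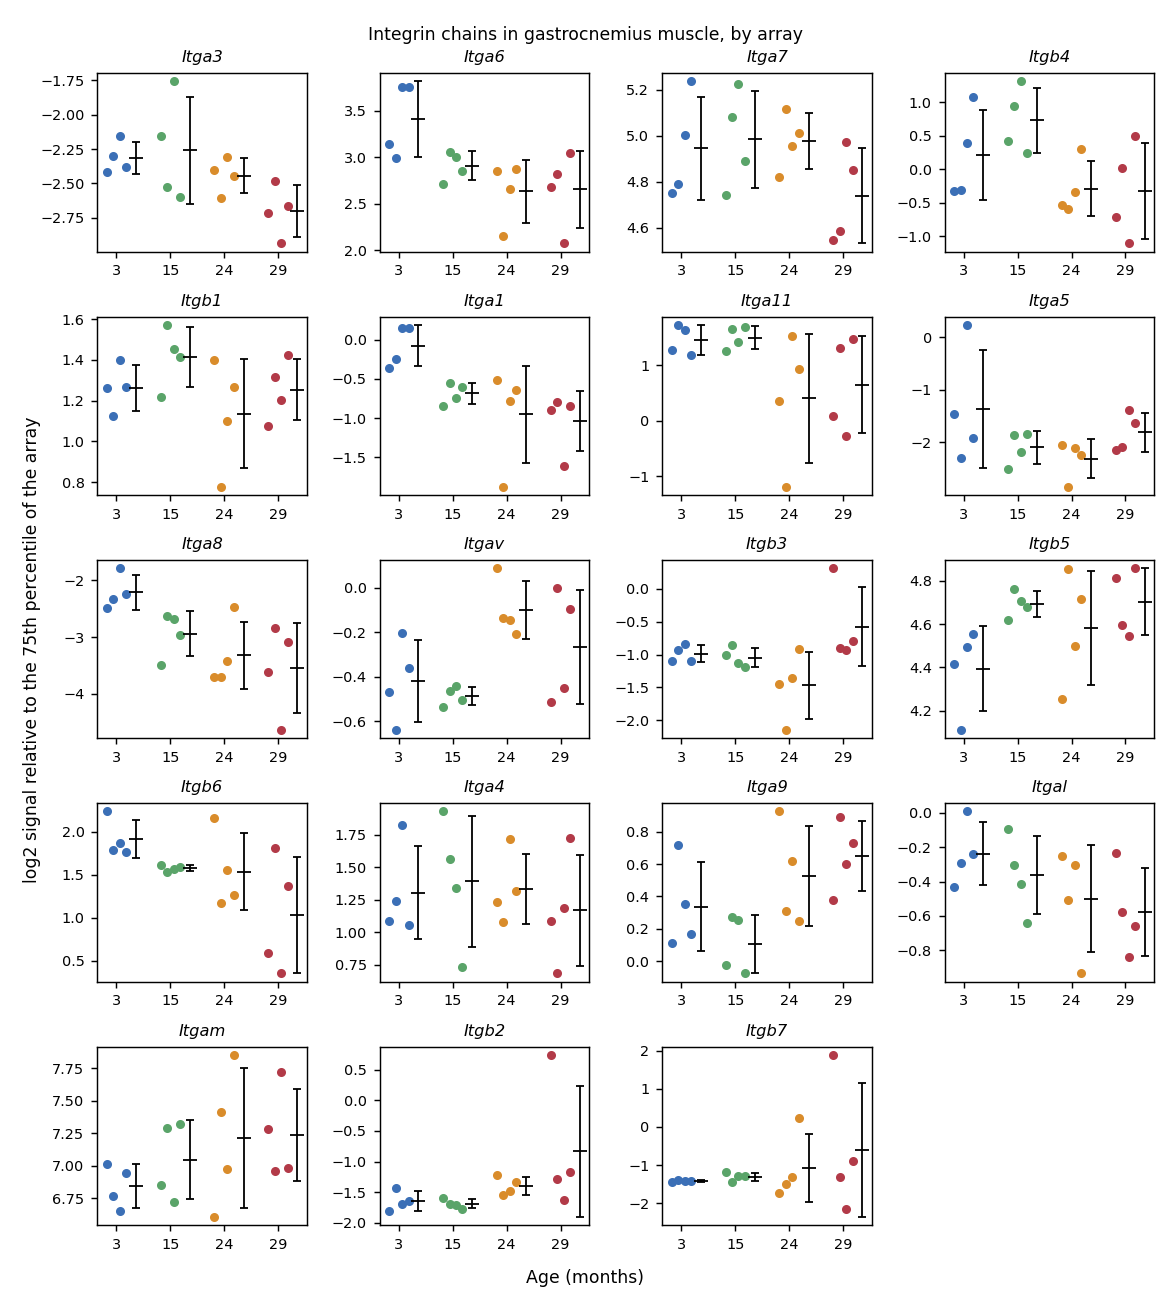
Levels of the 19 tested integrin chains by array, as log2 signal relative to the 75th percentile of the array (vertical axes, each gene on its own scale) against age in months (horizontal axes), with 1 point per array in the order of replicates 1 to 4 and a black bar for the mean ± SD of 4 arrays. Itga1 and Itga8 are lower on every array of 29 months than on any of 3 months, and replicate 1 of 29 months stands above the rest for Itgb2, Itgb3 and Itgb7.

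The comparisons within a slide asked whether the chains change between 3 and 15 months and between 24 and 29 months. From 3 to 15 months 0 of the 27 chains were called in limma, against 0.978% of all genes. At an unadjusted p under 0.05 were 5 of the chains, and 2335 of all 21777 genes. The changes ran from -0.73 (Itga5) to 0.52 (Itgb4), with a median of -0.05 against -0.01 over all genes. The 5 chains that were lower at 29 months had fitted changes of -0.48 (Lamc1), -0.61 (Itga1), -0.50 (Itga6), -0.72 (Itga8) and -0.34 (Itgb6) at 15 months, with SEs of 0.20 to 0.36. These comparisons share the arrays of 3 months with those of 29 against 3 months. Between these ages the arrays did not overlap for 7 of 27 chains (25.9%), against 12.1% of all genes. Of these, Itgb5 and Lama5 were higher at 15 months and Lamb1, Lamc1, Itga1, Itga8 and Itgb6 lower. The probe of Itga8 passed the filter only through 3 months, its highest age, so the filter favoured a lower level at 15 months.

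From 24 to 29 months, on the other slide, 0 of 27 were called in limma, against 1.91% of all genes. At an unadjusted p under 0.05 was 1 of the chains, and 3330 of all 21777 genes. The median change was -0.0070, against -0.03 over all genes. Lamc1 changed by -0.081, Itga1 by -0.085, Itga6 by 0.020, Itga8 by -0.22 and Itgb6 by -0.51, with SEs of 0.20 to 0.36. The largest change was that of Itgb3, 0.89 (adjusted p = 0.110, limma), with replicate 1 of 29 months in it. The arrays of the 2 ages overlapped for all 27 chains, against 7.04% of all genes without overlap.

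The step from 15 to 24 months crosses the slides. There 0 of 27 were called in limma, against 0.0964% of all genes. At an unadjusted p under 0.05 were 5 of the chains, and 2922 of all 21777 genes. The changes ran from -1.09 (Itga11) to 0.42, with 21 of 27 below 0 and a median of -0.18 against -0.02 over all genes. The arrays did not overlap for 3 of 27 chains, against 9.99% of all genes. Of these, Itgav and Itgb2 were higher and Lama5 was lower at 24 months.

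A line in age with the slide as a block, which uses only the age differences within a slide, called 0 of the 27, against 0.634% of all genes. At an unadjusted p under 0.05 were 4 of the chains, and 2370 of all 21777 genes. The slope of Lamc1 was -0.036 log2 units per month (SE 0.015, adjusted p = 0.364, limma) and that of Itga1 -0.046 (adjusted p = 0.394). The calls at 29 against 3 months therefore rest on a comparison across slides. The change from 3 to 15 months and that from 24 to 29 months differed in 0 of 27 chains in limma, against 0.67% of all genes. At an unadjusted p under 0.05 was 1 of the chains, and 2715 of all 21777 genes.

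**Figure D3:**
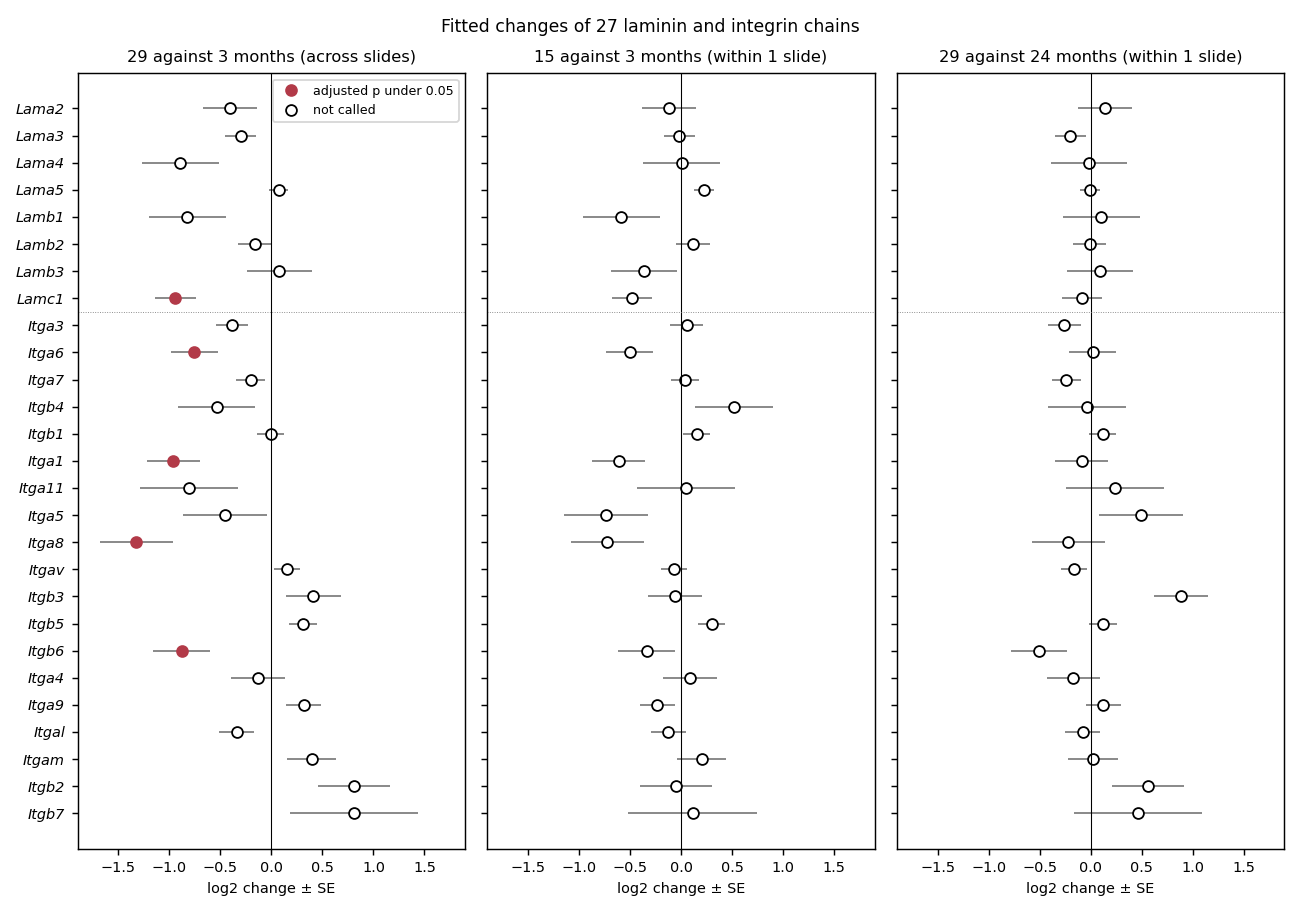
Fitted log2 change (horizontal axes, points, with bars of ± SE from the limma fit of 16 arrays) of the 27 tested laminin and integrin chains (vertical axis, laminins above the dotted line) for 29 against 3 months, across slides, and for 15 against 3 and 29 against 24 months, each within 1 slide. Filled points have an adjusted p under 0.05; they are 5, all in 29 against 3 months.

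The spread between arrays of one age was wider at the later ages. The median SD of the 27 chains was 0.183 at 3 months, 0.156 at 15 months, 0.367 at 24 months and 0.378 at 29 months, against 0.165, 0.162, 0.229 and 0.254 over all genes. At 24 months replicate 2 was the lowest of the 4 arrays for 16 of the 27 chains. At 29 months replicate 3 was the lowest for 14, replicate 1 for 11 and replicate 4 for 0. Among the 8 laminins replicate 1 was the lowest for 6, and among the 19 integrins replicate 3 was the lowest for 12.

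Some marker lists of other cells were low on the same arrays and others were not. On replicate 2 of 24 months the list means, relative to all arrays, ran from -1.82 (fibroblast) to 0.57 (Schwann cell). On replicate 3 of 29 months they ran from -2.40 (adipocyte) to 0.29 (platelet). Counts of markers below are for 29 against 3 months, where 7.66% of all genes were called lower and 6.99% higher. The mean of 7 fibroblast markers, relative to all arrays, was -1.82 on replicate 2 of 24 months and -1.30 on replicate 3 of 29 months, against 0.033 to 0.65 at 3 months, and 0 of 7 were called. The mean of 7 endothelial markers was 0.23 to 0.53 at 3 months and -0.54 to 0.084 at 29 months, and 3 of 7 fell. For smooth muscle and pericytes it was 0.17 to 0.71 at 3 months and -0.70 to -0.11 at 29 months, and 4 of 8 fell. For tendon and its junction with muscle it was 0.53 to 1.1 at 3 months and -0.78 to -0.34 at 29 months, and 4 of the 5 tested fell.

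Of the satellite cell markers 1 of 4 tested fell, of the Schwann cell markers 1 rose and 1 fell of 6, and of the leukocyte (9 tested), platelet (4), adipocyte (4) and epithelial (2) markers 0 were called. With 14.6% of all genes called and so few markers in a list, these counts say little about the cell types. The mean of 8 muscle fibre markers lay between -0.42 and 0.31 on all arrays, and 0 of 8 were called. The part of these cells in the lower levels of Lamc1, Itga1, Itga6 and Itga8 was not tested.

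**Figure D4:**
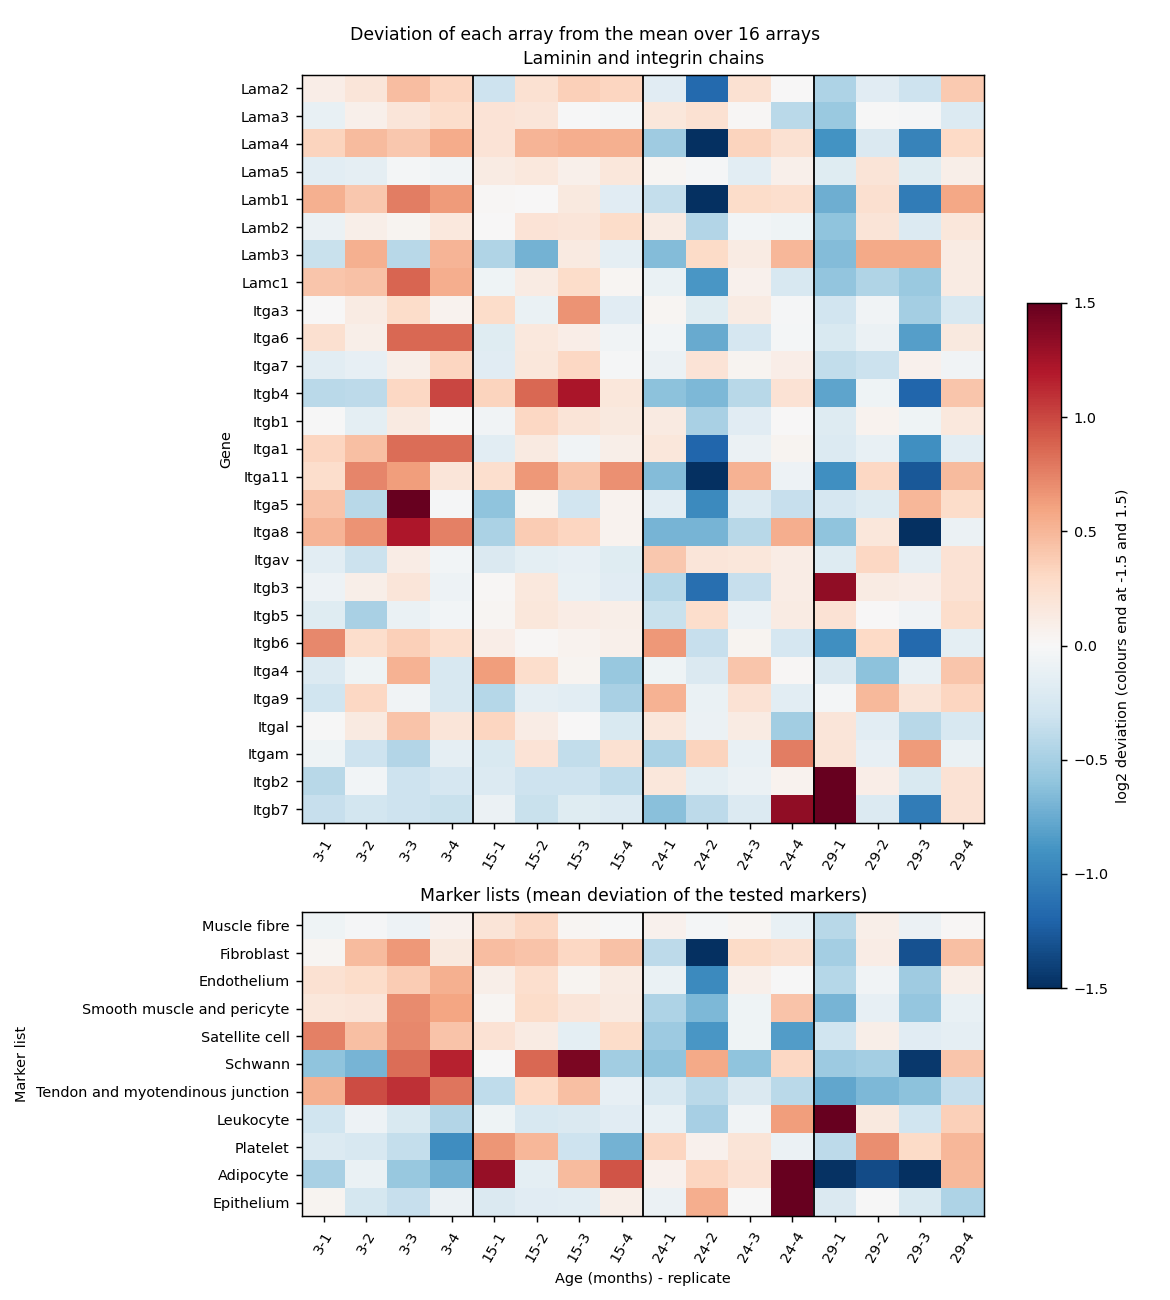
Deviation of each array (columns, age in months and replicate) from the mean over 16 arrays, in log2 units by colour, for the 27 laminin and integrin chains (upper rows) and as a mean over the tested markers of 11 cell types (lower rows). Replicate 2 of 24 months and replicate 3 of 29 months are low for many chains and for the fibroblast markers, and replicate 1 of 29 months is high for Itgb2, Itgb7 and the leukocyte markers.

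The other genes of these pathways were taken as 4 lists, chosen with earlier results of these data known. Of 16 genes for basement membrane proteins that bind laminin or lie beside it, 13 were tested and 7 fell from 3 to 29 months (53.8%, against 7.66% of all genes lower), 0 rose, and the median change was -0.88 against -0.04 over all genes. Fras1, a basement membrane protein of the Fraser complex, read -1.53, -1.88, -0.78 and -1.28 at 3 months and -4.58, -5.63, -3.99 and -4.42 at 29 months. All 4 arrays of 29 months were below all of 3 months, and since 0 of them was well above background the fall was at least 4.47-fold (measured means -1.37 and -4.65, adjusted p = 0.000164, limma). The probe of Fras1 passed the filter only through 3 months, its highest age. Col4a5, a type IV collagen chain, read -1.60, -1.81, -1.30 and -1.93 at 3 months and -2.70, -2.78, -2.62 and -2.27 at 29 months, again without overlap, a change of -0.93 (SE 0.21, adjusted p = 0.00880, limma).

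The others that fell were Hspg2, which encodes perlecan (1.62-fold), Col4a4 (1.51-fold), Frem2 (1.55-fold), Nid2, a nidogen (2.40-fold), and Col15a1 (2.18-fold). Of the core partners Col4a1, Col4a2 and Nid1, none was called, with changes of -0.88, -0.99 and -0.93. Within the slides the median change of this list was -0.43 from 3 to 15 months and -0.15 from 24 to 29 months, with 0 of 13 called in each.

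Of 19 genes for dystroglycan, its complex, its glycosylation and other laminin receptors, 1 rose and 1 fell (10.5%, against 14.6% of all genes called). Dmd, which encodes dystrophin, read 2.0, 1.94, 2.22 and 2.04 at 3 months, 2.48, 2.56, 2.35 and 2.51 at 15 months, 2.75, 3.29, 2.49 and 2.59 at 24 months and 3.08, 3.11, 3.10 and 2.74 at 29 months. Every array of the later ages was above every array of 3 months, and the change to 29 months was 0.96 (SE 0.15, 1.94-fold, adjusted p = 0.000861, limma). Sspn, which encodes sarcospan, a membrane partner of dystrophin, read 4.99, 4.91, 4.78 and 4.93 at 3 months and 3.88, 4.67, 4.11 and 4.36 at 29 months and fell 1.56-fold (adjusted p = 0.00723, limma). Dag1, dystroglycan itself, changed by -0.18 (SE 0.15, adjusted p = 0.472).

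Of 27 tested genes for integrin adaptors and focal adhesion proteins, 4 fell and 1 rose, a share (18.5%) near that of all genes called (14.6%). Cav3, the caveolin of muscle fibres, read 5.40, 5.65, 5.43 and 5.66 at 3 months, 4.78, 4.82, 4.94 and 5.08 at 15 months, 4.56, 4.71, 4.89 and 4.45 at 24 months and 4.17, 4.71, 4.52 and 4.69 at 29 months. It was lower on every array of each later age than on any of 3 months, and it was the 1 gene of the 4 lists called from 3 to 15 months (-0.63, adjusted p = 0.0383, limma), falling 2.02-fold by 29 months (adjusted p = 0.000241). Tln2, the talin that links integrins to actin in muscle, fell 1.66-fold, Rsu1, which binds the adaptor complex of integrin-linked kinase, 1.47-fold, and Itgb1bp1, which binds the tail of Itgb1, 1.43-fold. Flnc, the filamin of muscle, rose from 7.15, 6.66, 6.51 and 6.85 at 3 months to 7.18, 7.69, 7.67 and 7.82 at 29 months, 1.73-fold (adjusted p = 0.00919, limma).

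Of 14 tested genes for ligands of the other integrins, 4 fell (28.6%, against 7.66% of all genes lower) and 0 rose. Vtn, which encodes vitronectin, read 2.17, 2.17, 2.34 and 2.47 at 3 months, 1.31, 1.62, 1.37 and 1.5 at 15 months, 0.85, -0.45, 1.29 and 1.16 at 24 months and 0.40, 0.59, 0.031 and 0.82 at 29 months. Each later age lay wholly below 3 months, and the fall to 29 months was 3.55-fold (adjusted p = 0.000930, limma). The fibrillar collagens Col1a1, Col1a2 and Col3a1, ligands of Itga1, Itga2 and Itga11 integrins, fell 6.03-fold, 3.69-fold and 4.63-fold (adjusted p = 0.00477, 0.00890 and 0.0296, limma). At 29 months Col1a1 was 1.06, 2.23, 0.16 and 3.07, lowest on replicate 3, as for Itga11.

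Over the 73 tested genes of the 4 lists 1 was called from 3 to 15 months (1.37%, against 0.978% of all genes), 10 from 3 to 24 months (13.7% against 4.66%), 18 from 3 to 29 months (24.7% against 14.6%) and 0 from 15 to 24 or from 24 to 29 months. With the array median as the scale, the counts from 3 to 24 and to 29 months were 5 and 8, where 2.35% and 7.06% of all genes were called.

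**Figure D5:**
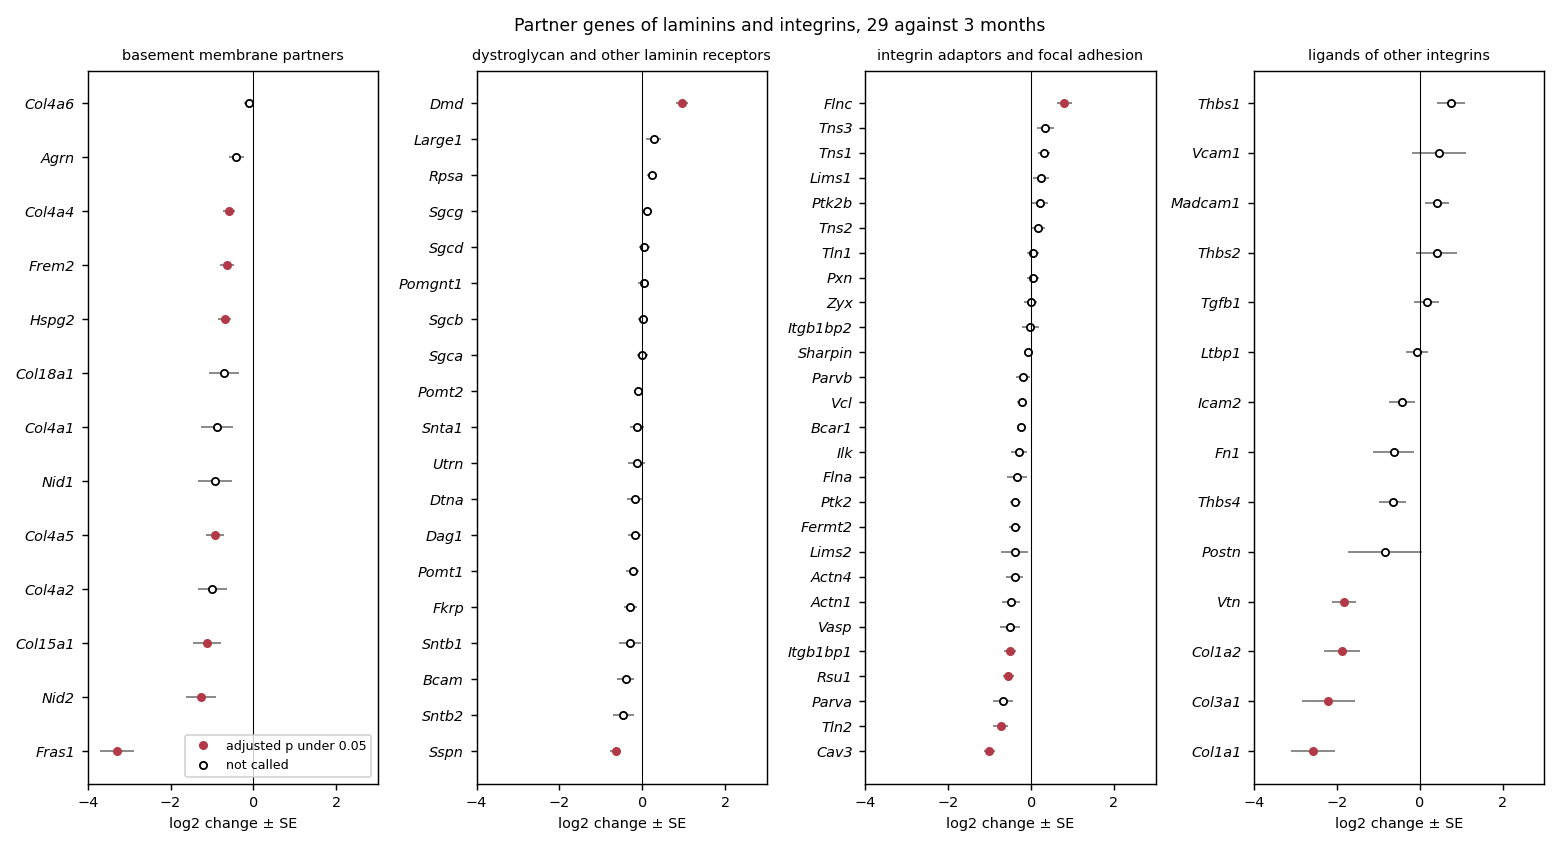
Fitted log2 change from 3 to 29 months (horizontal axes, points, with bars of ± SE from the limma fit of 16 arrays) of the tested genes of 4 lists of partners of laminins and integrins (vertical axes, sorted by change). Filled points have an adjusted p under 0.05; they are 7 of 13 basement membrane genes, 2 of 19 dystroglycan and receptor genes, 5 of 27 adaptor genes and 4 of 14 ligand genes.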

How the data were processed

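Signals are the scanner software's processed spot intensity (Feature Extraction 10.7.1.1, background subtracted, per the file headers). The series table deposited by the authors holds log2 values whose normalization none of the sources used here gives and whose median differs by array. Its 55821 values follow the scanner's feature numbers and not the probe names beside them, and it served as an alternative only. Of 62976 spots, 59305 were not control spots. Spots flagged as outliers (93 probes) were left out and 55588 probes used, of which 26540 had a gene symbol through their RefSeq accession.

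Log2 intensity minus the 75th percentile of the array was computed. The 28435 probes flagged well above background on every array of 1 age or more were kept, with the kept probe of highest mean standing for its gene. limma 3.58.1 (R 4.3.3) fitted age means of 16 arrays (lmFit, eBayes, 12 residual degrees of freedom), with Benjamini-Hochberg adjustment over 21777 genes and calls at 0.05, and the procedure was tested on simulated data. The 5 comparisons of ages, an F test, a line in age with the slide as a block and the difference of the steps within slides were fitted. Alternatives were other normalizations (quantile, array median), background correction (normexp, offset 50, on median spot signals), filters, probe rules, array weights, fewer arrays, a replicate block and a size threshold. Bounds set a probe not above background at the lowest signals above it. The number of arrays limits the precision.

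The chains and the lists of partners and markers were chosen with earlier results of these data known. Full values are given for every called chain and for Lama2, Lama4, Lama5, Lamb1, Lamb2, Lamc1, Itga6, Itga7 and Itgb1. From each partner list the 2 called genes of smallest p and, where 5 or fewer were called, every one are named. Other genes named were chosen after their values were seen. One chain that matches the naming rule and one partner gene are not reported here and are left out of the counts of chains and partners.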

Additional observations from a re-analysis of the deposited data

Results flagged for a closer look

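In 3 of 108 groups of 4 arrays, 1 array stood apart from the other 3 by Dixon's test at the 95% level, where chance alone gives about 1 in 20. Itga1 was -1.61 on replicate 3 of 29 months, with the other 3 arrays at -0.90 to -0.80, and the call of Itga1 at 29 against 3 months is lost without that array. Itgb3 was 0.31 on replicate 1 of 29 months, with the others at -0.93 to -0.80. Lama4 was 0.73 on replicate 1 of 15 months, with the others at 1.04 to 1.08.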

How the results depend on the processing

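No named chain reversed the sign of a call under any alternative, but calls were lost. At 29 against 3 months Itga6 stayed called under 6 of 12 alternatives, Itgb6 under 5 of 11 and Itga8 under 8 of 10. Itga1 stayed called under 10 of 12, and lost its call with the array median and with the mean over its probes. The count of chains called at 29 against 3 months (5) was 2 with the array median as scale or with only the ages compared, 3 with the deposited values, no filter on dim probes, array weights or without the 4 arrays of low weight (there Lamc1 and Itga1 lower and Itgb2 higher), and 1 to 6 when 1 array was left out, with Lama4 in the 6. The share of all genes called (14.6%) moved too. It was 7.06% with the array median, 9.11% with only the ages compared and 5.9% with no filter. With the deposited values it was 16%, with array weights 16.9% and without the 4 arrays of low weight 17.2%. It ran from 10% to 16.3% when 1 array was left out. At 24 against 3 months (1, with 4.66% of all genes called) the count was 0 with the array median (2.35%), no filter (1.26%) or only the ages compared (2.56%). It was 2 with the deposited values (7.39%), 3 with array weights (6.3%) and 4 with normexp (8.47%), and 0 to 4 without 1 array (2.08% to 5.89%). Without the 4 arrays of low weight it stayed at 1 (3.4%), but the chain was Itga8 and Lamc1 was not called. At 15 against 3 months (0) it was 1 with only the ages compared (3.31%) and 1 without the 4 arrays of low weight (3.68%). At 29 against 24 months (0) it was 1 with the deposited values (5.52%). The F test (1, with 11.9% of all genes called) gave 0 with the array median (5.78%), 3 with normexp (15.4%) and 2 with the deposited values (17.3%). It gave 2 with each probe on its own (11.6%), 4 with array weights (16.3%), 6 without the 4 arrays of low weight (12.9%) and 0 to 3 without 1 array (8.37% to 12.1%). The line in age (0) gave 1 with array weights (5.01% of all genes) and 1 without those 4 arrays (2.69%).

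Shares of all genes called are given in brackets. Of the partner genes, the 1 called at 15 against 3 months became 2 with quantile normalization (1.03%), 0 with the array median (0.409%), 3 with normexp (1.21%) and 4 with the deposited values (1.58%). It became 0 with no filter (0.285%), 2 with a trended robust fit (0.992%) and 11 with array weights (5.11%). It was 11 without the 4 arrays of low weight (3.68%), 11 with only the ages compared (3.31%) and 0 to 2 without 1 array (0.395% to 1.28%). The 10 at 24 against 3 months became 5 with the array median (2.35%), 5 with no filter (1.26%), 6 with only the ages compared (2.56%) and 4 to 12 without 1 array (2.08% to 5.89%). The 18 at 29 against 3 months became 8 with the array median (7.06%) and 14 to 24 without 1 array (10% to 16.3%). At 24 against 15 months the count was 1 with each probe on its own (0.095%), and at 29 against 24 months 0 to 1 without 1 array (0.703% to 2.58%). The causes were not tested.

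The array median as scale moved the median of all genes to -0.15 at 24 against 3 and at 24 against 15 months. Lamc1 at 29 against 3 months stayed called under 12 alternatives (adjusted p up to 0.0364, limma). Same-numbered arrays of different ages lay in the same column of their slide. Their deviations had correlations of -0.47 to 0.30, which show no clear pairing but, with 4 arrays an age, cannot exclude it. With the replicate number as a block, 3 chains were called at 29 against 3 months (not Itga6 or Itgb6), 1 at 24 against 3 months and 1 in the F test, and 15, 8 and 1 partner genes at 29, 24 and 15 against 3 months. That fit called 12.5%, 3.7% and 0.785% of all genes at 29, 24 and 15 against 3 months and 9.12% in the F test. With 4 arrays an age, changes well above their printed SEs can go uncalled. At 29 against 3 months this held for Lama4 (-0.89, SE 0.38) and Itga3 (-0.39, SE 0.16). A chain that was not called is therefore not shown to be unchanged. Itga8 and the second Itgb6 probe lie near background at 29 months.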
